A study of Mus musculus with 2 samples.

Results

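The genes described here are the nuclear genes for subunits of respiratory chain complexes II, III and IV and of ATP synthase, also called complex V. Members were chosen by symbol: Sdha, Sdhb, Sdhc, Sdhd, Cyc1, and every symbol that begins with Uqcr, Atp5, Cox4, Cox5, Cox6, Cox7 or Cox8. The rule found 51 of the 27179 listed genes, of which 4 belong to complex II, 10 to complex III, 18 to complex IV and 19 to complex V. These numbers include 2 pseudogenes (Uqcrh-ps1 and Atp5c1-ps), the ATP synthase inhibitor Atp5if1, and Cox7a2l, a relative of subunit 7A described as a supercomplex factor. Whether it joins complexes III and IV into supercomplexes in this mouse strain was not tested.

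Complex II passes electrons from succinate to ubiquinone, complex III passes them from ubiquinol to cytochrome c, and complex IV passes them from cytochrome c to oxygen. Complexes III and IV pump protons out of the mitochondrial matrix, and complex V lets protons back in to make ATP. In brown fat, UCP1 gives protons another way back and releases the energy as heat. All subunits of complex II are nuclear, whereas complexes III, IV and V also hold subunits made from mitochondrial DNA. Several subunits of complex IV have alternative isoforms that are known from heart and skeletal muscle, lung or testis. Such isoforms need not be confined to those tissues.

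Interscapular brown adipose tissue (iBAT) of untreated C57BL/6N mice aged 20 days was compared between wild-type and Ucp1-KO. The study describes the animals as male and the knockout as homozygous (Δ/Δ). Each genotype was 1 directional poly-A RNA library made from tissue pooled from 3 animals, so no value below has a replicate check and no difference between genotypes was tested. A log2 ratio is Ucp1-KO over wild-type, from counts divided by size factors with 0.5 added. Its 95% interval is an exact binomial interval on read pairs that covers counting error only, and "beyond counting error" means that this interval excludes 0.

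The libraries held 52950913 and 53216727 counts. Ucp1 had 366473 wild-type counts and 37853 in the library labelled Ucp1-KO, so the targeted gene was lower there but was not at 0; which part was deleted is not given in the sources used here. Of the brown adipocyte markers, 10 of 14 (against 31.5% of all genes examined) were higher in Ucp1-KO beyond counting error, with a median log2 ratio of 0.39. The most abundant were Fabp4 (387360 and 350385 counts), Ucp1 and Cidea (89838 and 102812). Other markers also moved with genotype. The 28 skeletal muscle markers made up 0.845% of the wild-type library and 0.118% of the Ucp1-KO library, and all 28 were lower, none of them at 0. The median log2 ratio was -0.86 for 5 endothelial markers, -0.68 for 5 markers of vascular smooth muscle and pericytes, -0.53 for 4 red cell genes, -0.16 for 4 fibroblast markers and 0.25 for 5 macrophage markers. The 4 Y-linked genes examined were at 0 in wild-type and had 5305 counts in Ucp1-KO, while Xist had 32380 and 16478 counts. The wild-type values do not match the description of the animals as male, and sex-linked transcripts differed with genotype. Genotype and the sex of the pooled animals cannot be told apart here. The part of these differences in the results below was not tested, and in bulk tissue fewer cells of a type cannot be told apart from less RNA per cell.

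Together the nuclear subunits made up 3.05% of the wild-type library and 2.60% of the other. Of the 51 members, 45 had a mean normalised count of at least 10, the minimum for a member to be examined. In Ucp1-KO, 20 of these 45 members were higher and 20 were lower beyond counting error, against 31.5% higher and 30.5% lower of the 15212 genes examined. The subunits are abundant, which narrows their intervals: among the 6395 genes with a mean of at least 1000, 2816 were higher and 2101 were lower. At least 2-fold differences were few. There were 2 members higher by that much (7.42% of all genes) and 1 lower (9.55% of all genes), all of complex IV: Cox7a2, Cox6b2 and Cox6a2. Of these members, Cox7a2 was examined only through its counts in Ucp1-KO. Of all genes, 17.0% differed by 2-fold in either direction.

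The median log2 ratio of the 45 members was -0.02, against -0.0016 for all genes examined. By complex it was 0.18 for complex II, 0.0024 for complex III, -0.04 for complex IV and -0.06 for complex V. The spread about these medians was narrow for abundant members: 37 of the 39 with a mean of at least 1000 lay within 0.5 of 0, which is 94.9%, against 76.9% of all genes at that level. None of these 39 differed by 2-fold, against 5.49% of the 6395 genes. These directions are relative to the median gene. Scaling by total counts lowers every ratio by the same amount and puts the median of all genes at -0.31, at which all complexes have negative medians, complex II included at -0.13.

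**Figure D1:**
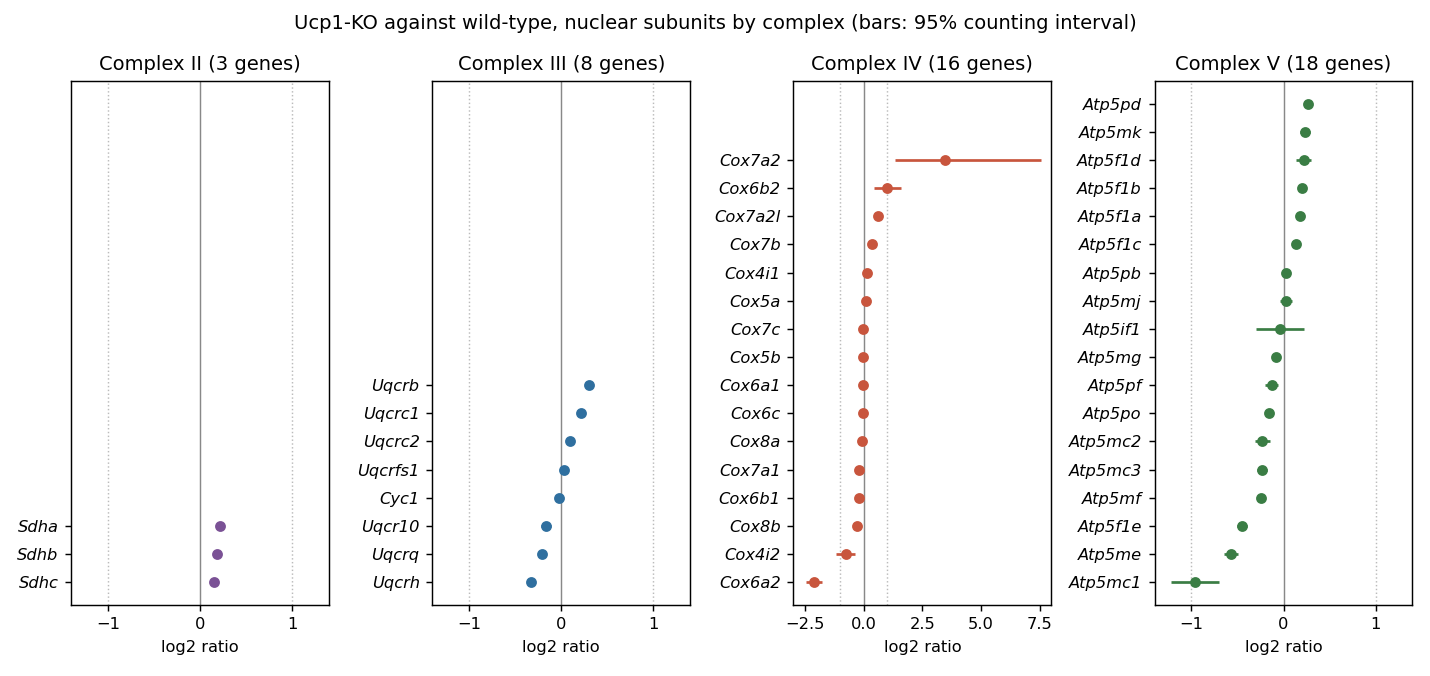
Log2 ratio of Ucp1-KO over wild-type (horizontal axis) for the 45 members examined, 1 panel per complex, with bars for the 95% counting interval, a solid line at 0 and dotted lines at 2-fold; the axis of complex IV is wider than the others. Members of complexes II, III and V all lie between the dotted lines, while Cox7a2 (3.44) and Cox6a2 (-2.12) lie outside them in complex IV and Cox6b2 (1.00) lies on the line.

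**Figure D2:**
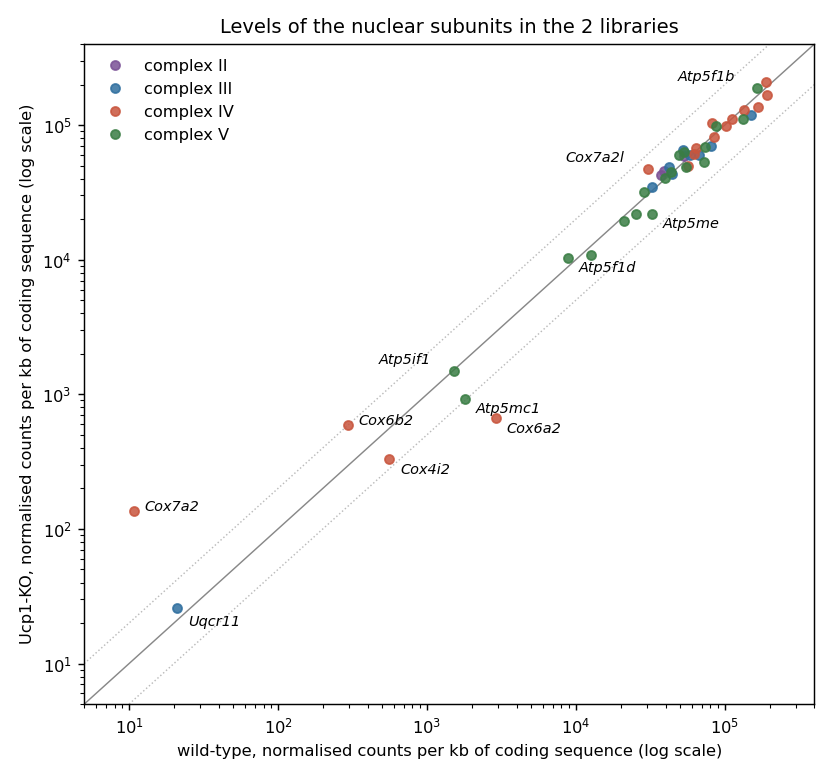
Normalised counts per kilobase of coding sequence in wild-type (horizontal) and Ucp1-KO (vertical), both on log scales, for the members with a coding sequence and a count in both libraries, coloured by complex; the solid line marks equality and the dotted lines 2-fold. Most members form a compact group near the solid line at the upper right, and the isoforms Cox6a2, Cox4i2 and Cox6b2, the subunit c gene Atp5mc1 and the inhibitor Atp5if1 lie far below that group, with Uqcr11 and Cox7a2 the lowest of all.

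In complex II, the 3 examined subunits were all slightly higher in Ucp1-KO, though all were lower when scaled by total counts. Sdha, the flavoprotein that oxidises succinate, had 86234 wild-type and 81400 Ucp1-KO counts, and its log2 ratio of 0.22 (interval 0.20 to 0.24) was the highest of the complex. Sdhb, the iron-sulphur subunit, had 35166 and 32377 counts, giving a log2 ratio of 0.18. Sdhc, a membrane anchor, had 30052 and 27210 counts and the lowest log2 ratio, 0.16 (0.12 to 0.19). The raw counts are lower and the ratios positive because the size factors were 1.11 for wild-type and 0.901 for Ucp1-KO. Per kilobase of coding sequence Sdhc was the most abundant, at 53113 and 59192 normalised counts, and Sdha and Sdhb were close to each other at 38961 and 37335 in wild-type. The second anchor, Sdhd (GRCm39 chr9:50507642-50515195, minus strand), was listed at 0 in both libraries, where the floor is 3 read pairs, or 6 counts. Its coding sequence had no copy elsewhere in the genome at 95% identity or more, and its exons shared 3 bases with Timm8b on the other strand; why a subunit that cells use is listed at 0 was not tested.

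In complex III, 4 of the 8 examined subunits were higher beyond counting error, 3 were lower and 1 was within it. The core proteins and the Rieske protein were near or above 0: Uqcrc1 had a log2 ratio of 0.21, Uqcrc2 of 0.09 and the Rieske iron-sulphur protein Uqcrfs1 of 0.03. Cytochrome c1, Cyc1, had 47655 and 38154 counts and a log2 ratio of -0.02 (interval -0.05 to 0.0064). The small subunits lay on both sides. Uqcrh, the hinge protein that sits by cytochrome c1, had 44673 and 28823 counts and the lowest log2 ratio of the complex, -0.33 (-0.36 to -0.30), and was also the most abundant member per kilobase (149135 and 118434 normalised counts). Uqcrq and Uqcr10 were lower as well, at -0.21 and -0.16. Uqcrb, which helps to form the ubiquinone site, had 19569 and 19636 counts and the highest log2 ratio, 0.30 (0.26 to 0.35). Its coding sequence has 3 copies elsewhere at 95% identity or more, so reads could be split between them, and its value is uncertain to that extent. Uqcr11, another small subunit, had 4 counts in each library and has 2 such copies.

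In complex IV, the 10 subunits that are neither tissue isoforms nor Cox7a2l had a median log2 ratio of -0.02. Cox4i1, the common isoform of subunit 4, was the most abundant member of the complex per kilobase, at 190349 and 209514 normalised counts, with a log2 ratio of 0.14 (107702 and 96312 counts). Cox6b1, which faces the intermembrane space, came next at 193557 and 168209 per kilobase, with a log2 ratio of -0.20 (56047 and 39572 counts). The order of these members reversed between the libraries. Cox5a and Cox5b had log2 ratios of 0.07 and -0.02, Cox6c of -0.05 and Cox7c of -0.01. Cox5b, Cox6c and Cox7c have near-identical copies, and Cox5a shares 1727 of its 4173 annotated exon bases with a gene on the other strand. The values of these subunits are uncertain to that extent. Cox7b, which lies on chromosome X, was higher, with 22268 and 22741 counts and a log2 ratio of 0.33 (0.29 to 0.37). It has 2 near-identical copies. At a mean of at least 100, the highest log2 ratio of the complex was that of the testis isoform Cox6b2, described below, and the next was that of Cox7a2l, with 11386 and 14240 counts, 0.62 (0.57 to 0.67). At a mean of at least 1000, Cox7a2l and Atp5me were the members that lay more than 0.5 from 0. Both have near-identical copies, Cox7a2l 1 at 97.7% identity and Atp5me 2 at up to 95.8%, so that their values are uncertain to the extent that reads were split.

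The 3 isoforms of complex IV known from heart and skeletal muscle were all lower in Ucp1-KO, by very different amounts. They need not be confined to muscle, and Cox7a1 and Cox8b were abundant in both libraries of this brown adipose tissue. Cox6a2 (chr7:127804607-127805559) had 943 wild-type and 176 Ucp1-KO counts, giving a log2 ratio of -2.12 (interval -2.47 to -1.79). Its common counterpart Cox6a1 had 37712 and 29657 counts, giving a log2 ratio of -0.05. Cox6a2 therefore was 2.44% of its pair in wild-type and 0.590% in Ucp1-KO by counts, with intervals of 2.23 to 2.67 and 0.473 to 0.726 that do not overlap. Cox8b (chr7:140477069-140480359) was a major form in both libraries. It had 39739 and 26165 counts, giving a log2 ratio of -0.30 (-0.34 to -0.27), while Cox8a had 19835 and 15507 counts and a log2 ratio of -0.06. Of the 2389 annotated exon bases of Cox8b, 1231 are shared with Psmd13 on the other strand, whereas Cox8a shares none. The strand setting of the counting is not given, so the values of Cox8b are uncertain to that extent. The share of Cox8b was 66.7% (66.2 to 67.2) in wild-type and 62.8% (62.1 to 63.4) in Ucp1-KO. Which form of subunit 8 is the more abundant depends on the length used: per kilobase of annotated exon length Cox8b made up 34.0% and 30.3%, because its annotated transcript is 2149 bases long and that of Cox8a 553. Cox7a1 had 15351 and 10902 counts, giving a log2 ratio of -0.19 (-0.24 to -0.14).

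These isoforms were set beside the skeletal muscle markers. The 28 markers, none of which is a member, had a median log2 ratio of -2.40, and 27 of them were at least 2-fold lower; the most abundant were Acta1 (76457 and 5916 counts), Myh4 (57748 and 6751) and Atp2a1 (34222 and 6950). Per 1000 counts of the summed markers, Cox6a2 stood at 2.11 in wild-type and at 2.80 in Ucp1-KO. On the same scale Cox7a1 had 34.3 and 173, and Cox8b 88.8 and 416. On this scale the Ucp1-KO value was 1.33 times the wild-type value for Cox6a2, 5.06 times for Cox7a1 and 4.69 times for Cox8b. The single markers also differed from each other, with log2 ratios from -3.92 (Pvalb) to -0.75 (Des). The 14 brown adipocyte markers had a median log2 ratio of 0.39. Of them, 10 were higher and 2 lower beyond counting error, against 31.5% and 30.5% of all genes examined. Cox7a1 (-0.19) and Cox8b (-0.30) lay below that median. Which cells the counts of these isoforms came from was not tested. Of the heart muscle markers, Actc1 had 1495 and 14 counts, Ryr2 73 and 152, and Myh6 64 and 2.

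Subunit 7A has a common isoform, Cox7a2 (chr9:79653049-79667162), which was nearly uncounted here. It had 3 wild-type and 31 Ucp1-KO counts, giving a log2 ratio of 3.44 whose interval ran from 1.34 to 7.57. The wild-type value lies under the floor of 6 counts. Cox7a1 therefore held 99.98% and 99.7% of the counts of this pair, and these shares are not read as a ratio of isoforms because so few reads were assigned to Cox7a2. The coding sequence of Cox7a2 has no near-identical copy; it is 64.5% identical to that of Cox7a1 and 61.3% identical to that of Cox7a2l, with at most 12 and 11 identical bases in a row. The cause of the low count was not tested.

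The isoforms known from lung and testis were scarce. Cox4i2, the lung isoform of subunit 4, had 322 and 154 counts, giving a log2 ratio of -0.76 (-1.18 to -0.36), and its share of the pair with Cox4i1 was 0.298% in wild-type and 0.160% in Ucp1-KO. The median log2 ratio was -0.68 for the markers of vascular smooth muscle and pericytes and -0.86 for the endothelial markers. Whether Cox4i2 moved with either was not tested. Cox6b2, a testis isoform of subunit 6B, had 87 and 142 counts, giving a log2 ratio of 1.00 (0.44 to 1.59), and its share of the pair with Cox6b1 was 0.155% and 0.358%. The intervals of both shares did not overlap between libraries. Cox7b2 and Cox8c, the other testis isoforms, were listed at 0 in both libraries, and for Cox7b2 this allows a share of its pair with Cox7b of up to 0.0331% and 0.0324%. Of 5 testis markers, 4 were at 0 in both libraries and Prm1 had 2 and 0 counts. Identity between the coding sequences of a pair ran from 57.6% for Cox8a and Cox8b to 69.2% for Cox4i1 and Cox4i2, with no identical stretch over 14 bases.

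**Figure D3:**
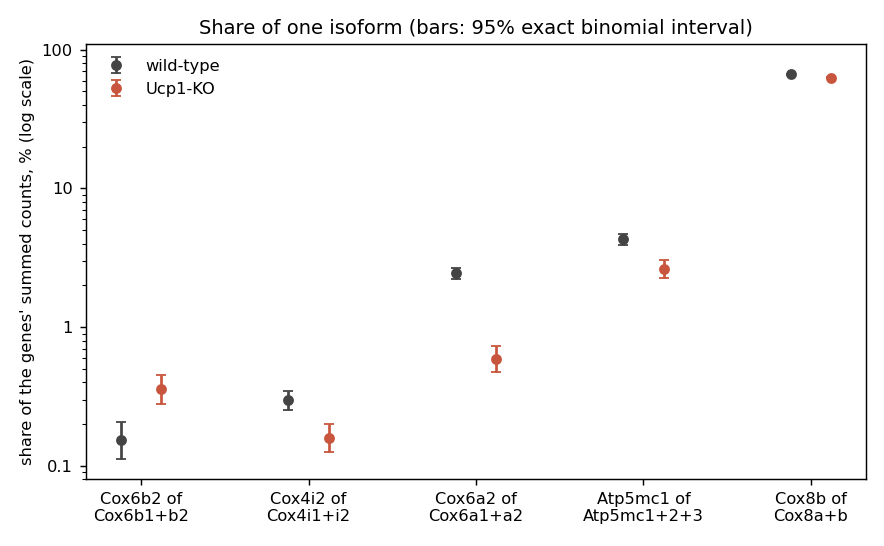
Share of the named isoform in the summed counts of its genes (vertical axis, log scale) in wild-type and Ucp1-KO, with bars for the 95% exact binomial interval. Cox4i2, Cox6a2, Atp5mc1 and Cox8b take smaller shares in Ucp1-KO and Cox6b2 takes a larger share; Cox6a2 has the widest gap, 2.44% against 0.590%.

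In complex V, the catalytic head F1 and the membrane part Fo lay on opposite sides of the median gene, though both were negative when scaled by total counts. Of the 5 F1 subunits, 4 were higher in Ucp1-KO beyond counting error and the median log2 ratio was 0.18. Atp5f1b, the catalytic beta subunit (chr10:127919132-127926261), had the most counts of all members, 289904 and 270448 counts, a log2 ratio of 0.20 (0.19 to 0.21) and 164344 and 188708 normalised counts per kilobase, the highest per kilobase in complex V. The alpha subunit Atp5f1a had 160920 and 147785 counts (0.18), gamma Atp5f1c 28697 and 25602 (0.14) and delta Atp5f1d 5009 and 4737 (0.22). The exception was Atp5f1e, the epsilon subunit of the central stalk, with 12817 and 7611 counts and a log2 ratio of -0.45 (-0.51 to -0.39). The summed counts of F1 gave a log2 ratio of 0.17. By the sum over all examined members, complex V as a whole was at 0.11, opposite in sign to its median of -0.06, since Atp5f1b and Atp5f1a hold most of its counts.

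Of the 4 peripheral stalk subunits, which hold F1 still against the turning rotor, 2 were higher and 2 lower. Atp5pd had the highest log2 ratio of complex V at 0.27 (0.23 to 0.30; 26761 and 26137 counts) and has 4 near-identical copies, Atp5pb was at 0.03, Atp5pf at -0.13 and Atp5po, the OSCP subunit, at -0.16. Of the 8 Fo genes, 6 were lower beyond counting error, 1 was higher (Atp5mk, 0.23) and 1 was within it (Atp5mj, 0.03), and the median was -0.23. Of all genes examined 30.5% were lower, and of those with a mean of at least 1000 32.9%. Subunit e, Atp5me, at which ATP synthase dimers meet, had 7778 and 4257 counts and a log2 ratio of -0.57 (-0.65 to -0.49). Subunit f, Atp5mf, was at -0.25 and subunit g, Atp5mg, at -0.09; the latter has 8 near-identical copies, the most of any member. Atp5mk has 3 near-identical copies, at up to 100% identity. It also shares 3248 of its 7236 annotated exon bases with Pdcd11 and Taf5 on the other strand, so its value is uncertain to that extent. Atp5if1, which inhibits ATP hydrolysis by F1, was scarce beside the subunits and within counting error, with 545 and 431 counts and a log2 ratio of -0.04 (-0.30 to 0.22).

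Subunit c, which forms the rotor ring of Fo, is made from 3 genes whose mature proteins are known to be the same and whose import sequences differ. All of them were lower, and Atp5mc1 most. Atp5mc1 (chr11:95959678-95966757) had 818 wild-type and 342 Ucp1-KO counts, the lowest log2 ratio of complex V at -0.96 (-1.22 to -0.70). Atp5mc2 had 6159 and 4271 counts, at -0.23, and Atp5mc3 12066 and 8328, at -0.24. Of the counts of these genes, Atp5mc1 held 4.30% (3.90 to 4.72) in wild-type and 2.64% (2.27 to 3.06) in Ucp1-KO, while Atp5mc3 held 63.4% and 64.4%; this comparison was chosen after the values were seen. The coding sequences of Atp5mc1, Atp5mc2 and Atp5mc3 were 70.7% to 72.3% identical in pairs. Their last 90 bases are shown because they encode the same stretch of the protein with different letters. Capitals mark the 24 positions at which the genes differ, and 78 of the 90 bases of Atp5mc2 and 73 of those of Atp5mc3 equal those of Atp5mc1.
Atp5mc1: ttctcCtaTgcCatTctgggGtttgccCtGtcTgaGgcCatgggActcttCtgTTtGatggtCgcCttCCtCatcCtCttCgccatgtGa
Atp5mc2: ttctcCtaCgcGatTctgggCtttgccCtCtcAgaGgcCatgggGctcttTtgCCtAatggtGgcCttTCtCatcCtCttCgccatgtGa
Atp5mc3: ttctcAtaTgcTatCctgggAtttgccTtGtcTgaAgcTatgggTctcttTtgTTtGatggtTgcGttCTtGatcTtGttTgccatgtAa
Atp5mc1 also has a copy elsewhere in the genome that is 99.8% identical to its coding sequence, and Atp5mc2 has 2 near-identical copies, so that their values are uncertain to the extent that reads were split.

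Relative to the median gene, short subunits tended to be lower and long ones higher, a relation noticed after the values were seen. Among the 36 core and accessory members with a mean of at least 1000, the 13 with coding sequences under 300 bases had a median log2 ratio of -0.16 and 10 of them were below 0. The 12 from 300 to under 600 bases had a median of 0.03, and the 11 of 600 bases or more a median of 0.14 with 9 above 0; when scaled by total counts all of these medians are negative and their order is kept. Spearman's rho between coding length and log2 ratio was 0.45 over these 36 genes, which share 2 libraries, and -0.0002 over 6321 genes at that level. For genes that are no member the medians of the same classes were -0.01 (118 genes), 0.04 and 0.06. Role and length overlap among the subunits: the coding sequences of the Fo genes in this set ran from 177 to 441 bases, and those of F1 alpha, beta and gamma from 897 to 1662, with F1 delta at 507 and epsilon at 159. Role and length cannot be told apart here.

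**Figure D4:**
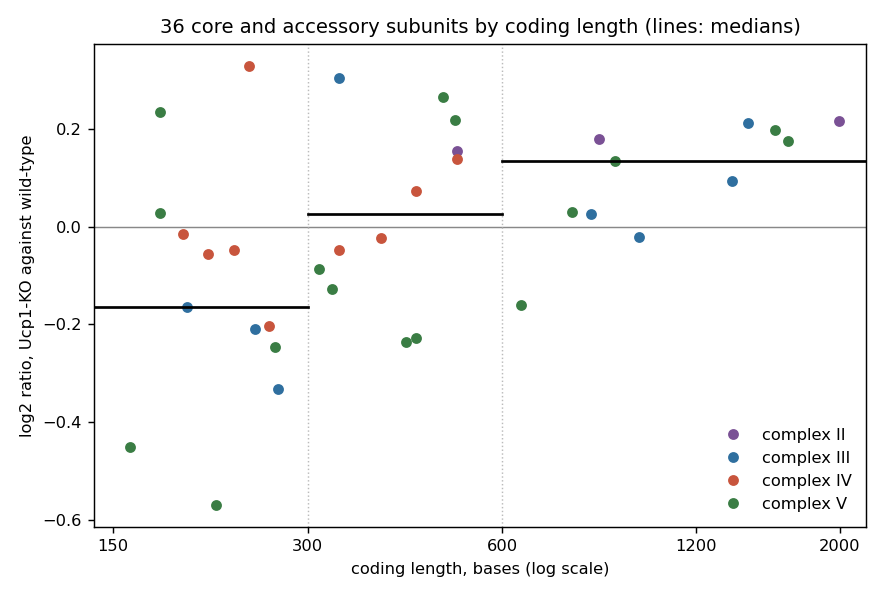
Log2 ratio of Ucp1-KO over wild-type (vertical axis) against coding length in bases (horizontal axis, log scale) for 36 core and accessory members, coloured by complex, with dotted lines at 300 and 600 bases and black lines at the median of each length class. The medians step from -0.16 to 0.03 to 0.14, and the lowest points, Atp5me (-0.57) and Atp5f1e (-0.45), are short genes of complex V.

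The remaining members had next to no counts. The pseudogene Uqcrh-ps1 had 6 counts in each library and Atp5c1-ps had 0 and 2. In all, 6 members had a mean under 10 (Sdhd, Uqcr11, Uqcrh-ps1, Cox7b2, Cox8c and Atp5c1-ps), and 3 of them, Sdhd, Cox7b2 and Cox8c, were at 0 in both libraries.

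A list of 54 assembly factors and partners of complexes II to V gave 50 examined genes, of which 25 were higher and 11 lower beyond counting error, against 31.5% and 30.5% of all genes examined. None was at least 2-fold different, against 17.0% of all genes, and the median log2 ratio was 0.14, against -0.0016. The largest differences were in Ttc19, an assembly factor of complex III (1763 and 2733 counts, 0.93), Uqcc5, also of complex III (272 and 420 counts, 0.93), and Cmc1, which binds COX1 during the assembly of complex IV (1452 and 2042 counts, 0.79). The electron carrier between complexes III and IV, cytochrome c (Cycs), had 40589 and 43123 counts and a log2 ratio of 0.39. Sco2 and Pet117, both of complex IV, were listed at 0 in both libraries.

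The 6 partners encoded by mitochondrial DNA were all higher in Ucp1-KO. The values ran from 0.31 for COX3 to 2.27 for ATP6, with COX1 at 0.74, ATP8 at 0.92, COX2 at 0.99 and CYTB, the partner in complex III, at 1.00. Of the nuclear members of complex IV, Cox7b (0.33), Cox7a2l (0.62) and Cox6b2 (1.00) lay above COX3. So did Cox7a2 (3.44), whose 3 wild-type counts lie under the floor of 6 counts, so that its place is uncertain. The other examined members of complex IV lay below COX3. In complex V, ATP6, which with the ring of subunit c forms the proton path, stood at 2.27 beside subunit c genes between -0.96 and -0.23. ATP6 had 69697 wild-type and 272272 Ucp1-KO counts, while ATP8 had 477 and 735. How reads were assigned between ATP6 and ATP8 was not tested, and their values are uncertain to that extent. The 6 mitochondrially encoded transcripts took 13.6% of wild-type counts and 19.8% of Ucp1-KO counts, and the nuclear subunits 3.05% and 2.60%. In shares of a fixed total, a gain by some genes lowers the share of others. Divided by size factors, the summed counts of all members gave a log2 ratio of 0.07.

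**Figure D5:**
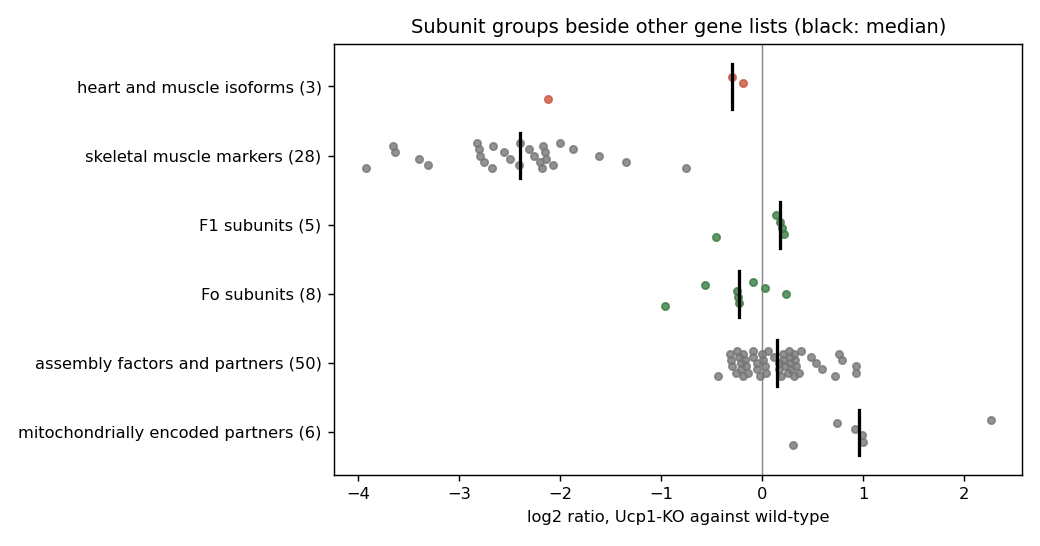
Log2 ratio of Ucp1-KO over wild-type (horizontal axis) for single genes (points) in 6 groups, with the number of genes in brackets and a black line at each median. Cox6a2 lies among the skeletal muscle markers (median -2.40) while Cox7a1 and Cox8b lie near 0, F1 (0.18) and Fo (-0.23) lie on opposite sides of 0 (both below it when scaled by total counts), and the mitochondrially encoded partners lie furthest to the right.

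Nuclear respiratory factor 1 (NRF1) is known to bind promoters of many respiratory chain genes, and its palindrome was looked for in the promoters of the members. RefSeq windows from 250 bases before to 50 bases after the start (table build GRCm38.p6) were matched to 37 of the 51 members by gene identifier. The letters of the NRF1 site with 1 free base, on either strand and including the full palindrome, occurred in 11 of the 37 members (29.7%), against 10.4% of 11569 examined genes with a window and 5.19% of all 27025 genes with a window. The full palindrome was present in 4 members (10.8%), namely Atp5mc2, Atp5me, Cox6a1 and Uqcrc1, against 2.11% and 1.07%. The letters TCAAGGTCA, bound by oestrogen-related receptors, occurred in Atp5mc3 and Sdhd (2 of the 37 members, 5.41%, against 0.320% of examined genes and 0.466% of all genes with a window; Sdhd itself was not examined). The full site of the MEF2 factors of muscle occurred in no member window (0.225% of examined genes and 0.181% of all genes), and the MEF2 site with free bases in its middle only in that of Cox5b (2.70% against 3.95% and 4.23%). A window for Cox6a2 was not analysed here.

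The stretches below are 100 bases on the gene's strand, 5′ to 3′, with GRCm39 positions found by exact match and starts as RefSeq gives them, which GENCODE M39 can place elsewhere; capitals mark the letters of the NRF1 site, with its free base, on either strand. Sdha is shown because it carries the letters at 3 places, Atp5me, Atp5mc2 and Cox6a1 because they carry the full palindrome, and Cox8a, Cox8b and Cox7a1 because they are the isoforms compared above and carry none in their windows. All stretches end 1 base before the start except that of Cox6a1, which runs from base -180 to -81.
Sdha (chr13:74498360-74498459, minus strand): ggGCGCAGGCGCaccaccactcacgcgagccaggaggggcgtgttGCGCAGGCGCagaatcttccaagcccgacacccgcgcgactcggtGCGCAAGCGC
Atp5me (chr5:108582266-108582365, minus strand): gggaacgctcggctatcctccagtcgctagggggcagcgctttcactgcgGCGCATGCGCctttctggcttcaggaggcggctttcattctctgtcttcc
Atp5mc2 (chr15:102579483-102579582, minus strand): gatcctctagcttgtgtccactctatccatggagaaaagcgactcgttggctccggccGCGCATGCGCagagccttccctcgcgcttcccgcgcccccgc
Cox6a1 (chr5:115487098-115487197, minus strand): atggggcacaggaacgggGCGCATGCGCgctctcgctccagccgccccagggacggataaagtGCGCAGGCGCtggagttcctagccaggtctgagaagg
Cox8a (chr19:7194982-7195081, minus strand): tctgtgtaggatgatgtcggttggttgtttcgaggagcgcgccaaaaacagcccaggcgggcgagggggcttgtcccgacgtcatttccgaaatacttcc
Cox8b (chr7:140480360-140480459, minus strand): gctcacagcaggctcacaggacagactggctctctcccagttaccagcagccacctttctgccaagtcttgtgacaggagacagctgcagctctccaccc
Cox7a1 (chr7:29883496-29883595, plus strand): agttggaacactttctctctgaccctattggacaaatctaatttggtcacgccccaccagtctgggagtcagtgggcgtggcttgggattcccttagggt
The ratios of members with and without the letters overlapped. The 10 examined members with the letters had a median log2 ratio of -0.04, ranging from -0.57 to 0.27, and the 24 without them had a median of -0.02, ranging from -0.96 to 3.44. A match describes the letters of the window and does not show that the factor binds there.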

How the data were processed

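RNA of iBAT was measured in 2 libraries, 1 per genotype, each from 3 pooled animals. The authors deposited featureCounts tables of whole-number counts per gene; per the labels the reads were trimmed with Trim Galore and aligned with HISAT2 to mm39 (submitters' processing notes). Versions, annotation, strand setting and the treatment of reads with several matches are not given in the sources used here. Low counts were mostly even (70.7% and 73.4% of counts of 1 to 10), so intervals used read pairs (counts divided by 2). Genes without a symbol, 0.156% and 0.121% of counts, were kept in the totals.

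Size factors came from DESeq2 1.42.0 (median of ratios) and, as an alternative, edgeR 4.0.16 (TMM). Ratios used a pseudocount of 0.5, and genes with a mean of at least 10 were examined. No test was run. Intervals are 95% exact Clopper-Pearson intervals for counting error only, since amplified reads carry no molecular identifiers here. The code was tested on simulated data. Positions and lengths came from GENCODE M39 on GRCm39, and near-identical copies are BLAST 2.17.0 matches over at least 80% of the coding sequence at 95% identity.

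The text gives in full both genes of each isoform pair, members at least 2-fold different, the extremes of each complex at a mean of at least 100, its most abundant member per kilobase and members under 10; of assembly factors the 3 largest differences, and of marker lists the 3 most abundant. For the endothelial, vascular smooth muscle and pericyte, red cell, fibroblast and macrophage lists only medians are given. Members and lists were chosen with earlier results of these data known. Alternatives covered scaling, minimum count, fold, pseudocount, interval and length.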

Additional observations from a re-analysis of the deposited data

How the results depend on the processing

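No paired analysis was possible because a single pool stands for either genotype, which also leaves no replicate to omit. Scaling by total counts put the medians at -0.13 for complex II, -0.30 for complex III, -0.34 for complex IV, -0.37 for complex V and -0.33 for all members, beside -0.31 for all genes. It also gave 1 member at least 2-fold higher and 3 lower. Of the 28 named members recomputed under that scaling, 9 that were higher beyond counting error turned negative: Cox4i1 (-0.17), Sdha (-0.090), Sdhb (-0.13), Sdhc (-0.15), Uqcrb (-0.0023), Atp5pd (-0.041), Atp5f1a (-0.13), Atp5f1b (-0.11) and Uqcrfs1 (-0.28). Total counts without mitochondrially encoded genes and TMM factors moved no median of a complex by more than its counting interval. Cox6b2 lies at the 2-fold limit, so 1 member was 2-fold higher under TMM (log2 ratio 0.99), total counts without mitochondrially encoded genes, a log2 limit of 1.5, and an interval wholly beyond 2-fold; a minimum mean of 50 also gave 1, since Cox7a2 was then not examined. With no minimum count the median of complex III was 0.060. By summed counts complex V reversed to 0.11, complex IV was at 0.010 and all members at 0.074. Without members that have a near-identical copy or share exon bases on either strand, 2 genes of complex V were left, with a median of -0.35; without those that have a near-identical copy (added after the data were seen) its median was -0.0054. Per kilobase of exon length the share of Cox8b was 34.0% and 30.3%, that of Cox6a2 in wild-type 2.06% and that of Cox7a1 in Ucp1-KO 99.98%; per kilobase of coding sequence, also added later, that of Cox6a2 in wild-type was 2.78%. A pseudocount of 5 moved none of the 28 named members outside its counting interval, and took Cox7a2 from 3.44 to 2.35. The depth limits Cox7a2, Uqcr11 and the pseudogenes, whose counts lie near or under the floor.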
